A study of Mus musculus with 60 samples.

Results

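TRBV23, known in the older nomenclature as V beta 20, is one of the variable (V) segments from which the T cell receptor (TCR) beta chain (TCRB) is built. The TRBV23 clonotypes described here are all those whose V segment is given as TRBV23 in the CD4 and CD8 TCRB tables, where a clonotype is an amino acid sequence of the complementarity determining region 3 (CDR3) with its V and joining (J) segment. There were 5913 of them among 85775 listed clonotypes of CD4 T cells and 385 among 82447 of CD8 T cells. Counted over both tables they were 6228 distinct clonotypes of 161947. TRBV23 was chosen on its CD4 usage in gut against liver and on day 6 against before hematopoietic cell transplantation (HCT), so those contrasts are described below without a test.

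The study compared donor T cells that lack STAT3, a transcription factor, or both STAT3 and PD-1, an inhibitory receptor, with wild-type T cells in graft-versus-host disease (GVHD). The hosts were BALB/c mice after lethal irradiation. All groups shared the same T cell-depleted bone marrow (TCD-BM), from WT C57BL/6 mice, and differed in the CD90.2+ T cells added to it, whose C57BL/6 donors were WT, STAT3ko (Stat3 fl/fl CD4-Cre) or STAT3koPD-1ko (Stat3 fl/fl PD-1-/- CD4-Cre). CD4-Cre acts while T cells develop in the thymus and so deletes Stat3 in both CD4 and CD8 T cells, whereas PD-1 is missing from all cells of the donor. Each of the 2 tables had 15 libraries, namely 3 labelled as naive spleen T cells before HCT (1 per genotype) and 12 from day 6 after HCT, with 2 replicates for each genotype in liver and in gut. Each day 6 sample pooled lymphocytes of 3 recipients, sorted as H-2Kb+TCRβ+CD4+ or CD8+ cells. H-2Kb marks donor-type cells and does not separate the injected T cells from others of donor origin. Ages of the mice are not given in the sources used here, and the tables hold no CD4 or CD8 transcript with which to check the sort.

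A developing T cell joins 1 V, 1 diversity (D) and 1 J segment of the TCRB locus, trims the ends and adds bases that no segment encodes. The CDR3 spans this junction and lies over the peptide in the groove of the major histocompatibility complex (MHC), while the other loops come from the V segment alone and mostly touch the MHC molecule itself. CD4 T cells see peptides on MHC class II and CD8 T cells on MHC class I, so a V segment need not be used alike in both. In BALB/c mice, some V beta families are known to be deleted by superantigens of endogenous mammary tumour viruses, and C57BL/6 mice, which lack the class II molecule I-E, delete fewer of them.

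In the GRCm38 mouse assembly, Trbv23 (ENSMUSG00000076478) lies at chr6:41216073-41216526 on the plus strand, with exons at 41216073-41216121 and 41216229-41216526. Trbv21 and Trbv20 lie before it, and Trbv24, annotated as a pseudogene, and Trbv26 (V beta 3) lie after it. The germline ends of the segments and the leading clonotypes are shown because the size of the TRBV23 set in a library rests on such junctions. The capitals in the first line mark the codon of the cysteine at which a CDR3 begins.

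Trbv23 end: TGCtccagcagtcaatc
Trbd1: gggacagggggc
Trbd2: gggactgggggggc

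The 17 bases of the Trbv23 end encode CSSSQ and the start of a further codon. By a fixed rule the clonotypes named were the 3 with the highest mean frequency on day 6, the 3 found in the most libraries and the highest in any single library, in each table. In the lines below, capitals are the bases of the CDR3 that match neither the germline V end nor the germline J start, that is the D segment with added bases.

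CD4 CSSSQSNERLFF TRBJ1-4: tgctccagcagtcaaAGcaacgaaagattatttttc
CD4 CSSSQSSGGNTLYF TRBJ2-4: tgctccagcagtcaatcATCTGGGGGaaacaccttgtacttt
CD4 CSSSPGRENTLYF TRBJ2-4: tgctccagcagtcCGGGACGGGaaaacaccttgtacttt
CD4 16-residue clonotype with TRBJ2-3: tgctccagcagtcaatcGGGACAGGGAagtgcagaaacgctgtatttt
CD4 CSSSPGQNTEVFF TRBJ1-1: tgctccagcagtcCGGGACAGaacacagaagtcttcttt
CD4 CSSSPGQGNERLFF TRBJ1-4: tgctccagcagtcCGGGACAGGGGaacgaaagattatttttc
CD8 15-residue clonotype with TRBJ2-7: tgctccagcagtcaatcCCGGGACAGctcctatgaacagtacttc
CD8 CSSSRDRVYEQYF TRBJ2-7: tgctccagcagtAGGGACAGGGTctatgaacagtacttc
CD8 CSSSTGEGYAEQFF TRBJ2-1: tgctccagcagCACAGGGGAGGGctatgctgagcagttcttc
CD8 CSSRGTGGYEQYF TRBJ2-7: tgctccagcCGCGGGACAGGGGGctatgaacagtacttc
CD8 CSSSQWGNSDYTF TRBJ1-2: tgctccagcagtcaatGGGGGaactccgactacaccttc

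Of these 11 sequences, 6 hold gggacag, the first bases of Trbd1, within the capitals. On the coding strand the same letters were found anywhere in the CDR3 of 11.4% of all CD4 TRBV23 clonotypes and 11.3% of CD4 clonotypes of other V segments, and of 9.61% and 10.7% in CD8. The first bases of Trbd2 differ from these letters.

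The values are fractions of the reads of a library. A clonotype had to occur in 2 or more of the 18 joined libraries to enter a table, so part of each library is unlisted, and usage below is the percentage of the listed frequency. The read depth is unknown, and no interval for a single library can be given. The gut replicate 2 libraries stood apart: listed clonotypes made up 47.8% to 51.5% of their reads in CD4 and 53.2% to 58.0% in CD8, against 81.6% to 97.2% and 81.5% to 98.4% in the other libraries. Libraries also shared TRBV23 clonotypes unevenly. The overlap of the CD4 library before HCT with liver replicate 1 of the same genotype, the sum over TRBV23 clonotypes of the smaller frequency, was 37.8% ± 2.86 (SD, n = 3 pairs), against 2.01% ± 0.90 (n = 6) with liver replicate 1 of other genotypes and 2.77% ± 1.19 (n = 3) with liver replicate 2 of the same genotype. In CD8 it was 45.7% ± 11.8 (n = 3) against 0 (n = 6) and 0.29% ± 0.51 (n = 3). Within a genotype, gut replicate 1 shared 29.3% ± 7.99 of its CD4 TRBV23 frequency with liver replicate 1 and 24.6% ± 1.60 with liver replicate 2 (n = 3 each), whereas gut replicate 2 shared 1.27% to 3.58% on average with any other library of its genotype. Results were therefore also computed without liver replicate 1 and without gut replicate 2, except the terms that compare genotype effects between gut and liver. The p-values below treat the libraries as independent, although some libraries of a genotype shared clonotypes as above. They measure the spread between these samples, since nothing says which replicates came from separate experiments.

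CD4 TRBV23 usage was lowest before HCT, intermediate in liver and highest in gut, and the 3 sets of libraries did not overlap. Before HCT, usage was 2.02% in WT, 2.06% in STAT3ko and 1.53% in STAT3koPD-1ko T cells. In liver on day 6 it was 5.13% and 3.82% in the WT replicates, 3.35% and 3.05% in STAT3ko, and 3.27% and 3.59% in STAT3koPD-1ko. In gut it was 9.0% and 8.33% in WT, 13.7% and 8.40% in STAT3ko, and 11.4% and 13.0% in STAT3koPD-1ko. Thus the lowest gut library lay above the highest liver library, and every liver library lay above every library before HCT. As a percentage of all reads of a library, listed or not, the gut values were 7.53%, 11.4% and 9.28% in replicate 1 of WT, STAT3ko and STAT3koPD-1ko but 3.98%, 4.12% and 6.72% in replicate 2, and liver reached 4.70%, so that on this scale gut and liver overlapped. Unlisted reads, whose V segments are unknown, count in that denominator alone. As percentages of listed frequency, the means were 1.87% ± 0.29 (SD, n = 3) before HCT, 3.70% ± 0.75 (n = 6) in liver and 10.6% ± 2.39 (n = 6) in gut. These levels chose TRBV23 and are a description. For background, limma on the log2 scale called 85.7% of 21 CD4 TRBV segments between gut and liver and 66.7% between day 6 and before HCT. Among TRBV segments, TRBV23 ranked 15 or 16 before HCT, 8 to 14 in liver and 2 or 3 in gut.

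**Figure D1:**
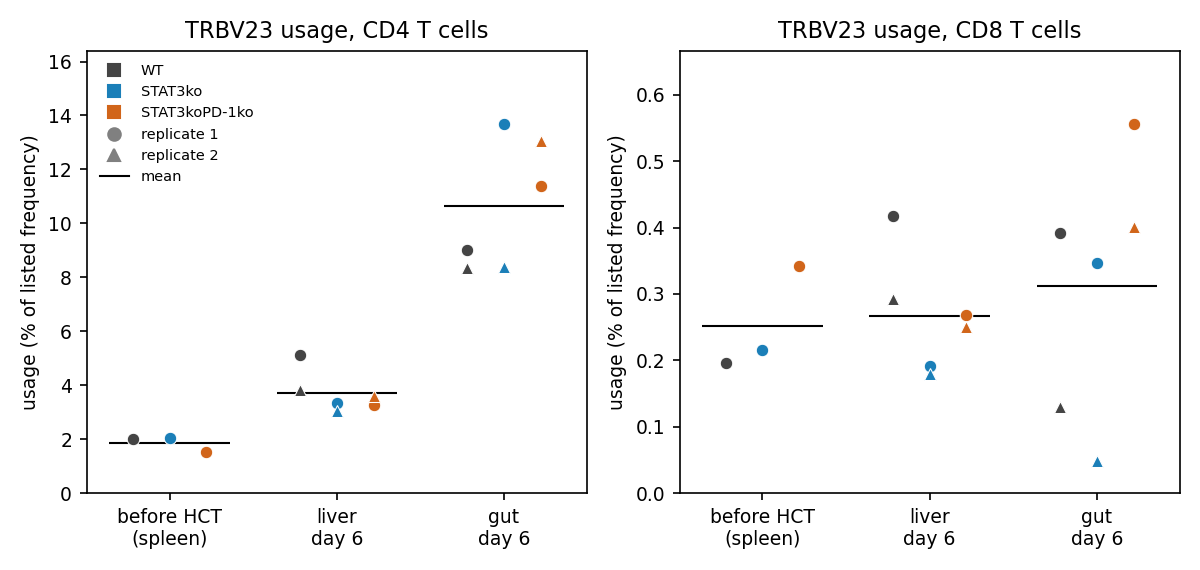
TRBV23 usage (percent of the listed frequency of a library) in CD4 (left) and CD8 (right) T cells before HCT and in liver and gut on day 6, with 1 point per library, genotypes by colour, replicates by symbol and a line at each mean. CD4 points sit at 1.53% to 2.06%, 3.05% to 5.13% and 8.33% to 13.7%, whereas all CD8 points lie below 0.56% and overlap between tissues.

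The order of tissues was the same in each genotype, with different spacing. Gut usage was 1.94 times liver usage in WT, 3.45 times in STAT3ko and 3.56 times in STAT3koPD-1ko, from means of 2 replicates. Gut usage was 4.28, 5.36 and 7.95 times the usage before HCT in the same order of genotypes, and liver usage 2.21, 1.56 and 2.24 times.

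The segments next to TRBV23 at that end of the locus did not all share this order, as a description over the same libraries. TRBV26 was at 4.86% before HCT, 9.09% in liver and 25.4% in gut. TRBV24 was at 0.246%, 0.264% and 0.504%, and TRBV21 at 0.462%, 0.484% and 1.1%. TRBV22, between TRBV21 and TRBV23 by number, was at 1.02%, 0.866% and 1.07%. TRBV20 ran the other way, at 2.61%, 2.10% and 1.14%. Over the 15 CD4 libraries, log2 usage of TRBV23 was most like that of TRBV26 (Pearson r = 0.961), TRBV12-2 (r = 0.817) and TRBV24 (r = 0.782). In CD8 the most alike were TRBV26 (r = 0.585), TRBV3 (r = 0.512) and TRBV1 (r = 0.47). These points share libraries, and usages of a library sum to a constant.

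The genotype contrasts were not used to choose TRBV23. With liver and gut in 1 fit, no genotype difference in CD4 TRBV23 usage passed the adjusted threshold. STAT3ko minus WT was −0.08 on the log2(percent + 0.1) scale (SE 0.21, 95% interval −0.52 to 0.37, adjusted p = 0.912). STAT3koPD-1ko minus STAT3ko was 0.14 (−0.30 to 0.59, adjusted p = 0.802), and STAT3koPD-1ko minus WT was 0.06 (−0.38 to 0.51, adjusted p = 0.841). The intervals reach from 0.70-fold to 1.29-fold for the first contrast and 0.77-fold to 1.42-fold for the last, on the scale with the pseudocount. Under alternatives the differences ranged from −0.11 to 0.098, from −0.022 to 0.20 and from −0.13 to 0.30, in the order given. limma called 0 (0%) of the 21 CD4 segments in each of these contrasts, and 0, 4 and 6 had an unadjusted p under 0.05.

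Within tissues the genotypes were ordered differently. In liver both STAT3koPD-1ko replicates (3.27% and 3.59%) lay below both WT replicates (5.13% and 3.82%), and in gut both (11.4% and 13.0%) lay above both (9.0% and 8.33%). The genotype effect in gut minus that in liver, a term added after the data were seen, was 0.85 for STAT3koPD-1ko minus WT (SE 0.35, 95% interval 0.07 to 1.62), which did not pass adjustment in limma (adjusted p = 0.723). It was 0.76 for STAT3ko minus WT (adjusted p = 0.787) and 0.08 for STAT3koPD-1ko minus STAT3ko (adjusted p = 0.950). limma called 0 (0%) of the 21 segments for each of these terms, and 0 to 1 had an unadjusted p under 0.05. With each clonotype counted once, the terms were −0.014 for STAT3koPD-1ko minus WT, 0.20 for STAT3ko minus WT and −0.21 for STAT3koPD-1ko minus STAT3ko.

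In CD8 T cells TRBV23 was rare and its usage did not separate the tissues. Before HCT it was 0.196% in WT, 0.216% in STAT3ko and 0.343% in STAT3koPD-1ko T cells. In liver the replicates were at 0.418% and 0.292% in WT, 0.192% and 0.179% in STAT3ko, and 0.269% and 0.251% in STAT3koPD-1ko. In gut they were at 0.392% and 0.129% in WT, 0.346% and 0.0479% in STAT3ko, and 0.555% and 0.401% in STAT3koPD-1ko. The gut libraries held both the lowest and the highest value, and the 2 lowest were those of STAT3ko and WT gut replicate 2. Means were 0.251% ± 0.080 (SD, n = 3), 0.267% ± 0.086 (n = 6) and 0.312% ± 0.189 (n = 6). TRBV23 ranked 19 to 23 among the CD8 segments.

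Gut minus liver was 0.03 in CD8 (SE 0.31, 95% interval −0.67 to 0.74, adjusted p = 0.974) in limma over all 26 segments, of which it called 38.5%. Without the 3 gut replicate 2 libraries the difference was 0.55, with an adjusted p of 0.0486, and counting each clonotype once it was −0.36 (adjusted p = 0.30). Day 6 minus before HCT was 0.07 (−0.64 to 0.78, adjusted p = 0.902 in limma), with 3.85% of segments called, and ranged from −0.21 to 0.37 under alternatives. The 0.37 came from a fit with a replicate block, confounded with this contrast because all libraries before HCT are replicate 1. For genotype, STAT3ko minus WT was −0.52 (−1.38 to 0.34, adjusted p = 0.639), STAT3koPD-1ko minus STAT3ko 0.74 (−0.12 to 1.61, adjusted p = 0.477) and STAT3koPD-1ko minus WT 0.22 (−0.64 to 1.09, adjusted p = 0.786). With 1% added before taking logs these were −0.13, 0.20 and 0.066, and counting each clonotype once STAT3koPD-1ko minus STAT3ko was 0.13. The corresponding shares of segments called were 0%, 0% and 7.69%, with 1, 3 and 5 segments at an unadjusted p under 0.05. The terms for gut minus liver effects were 0.27, 0.82 and 1.09 (adjusted p = 0.949, 0.736 and 0.945), with 0% of segments called by limma and 1, 1 and 0 at an unadjusted p under 0.05. With 1 library left out, the terms ranged from −0.53 to 1.07, from 0.027 to 1.62 and from 0.54 to 1.64.

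Of a list of 23 named mouse TRBV segments, 20 were tested in CD4 and 22 in CD8. In CD4, 5 were higher and 13 lower in gut than in liver, and 5 were higher and 9 lower on day 6 than before HCT. In CD8, 5 were higher and 5 lower in gut than in liver, 1 was lower on day 6, and 2 were higher in STAT3koPD-1ko than in WT. These are all of the segments called, that is 85.7% and 66.7% of the 21 tested in CD4 and 38.5%, 3.85% and 7.69% of the 26 tested in CD8, so the counts are the background itself and nothing particular to the list. TRBV23 passed in none of these CD8 contrasts.

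The ratio of CD4 to CD8 usage of TRBV23 was above 1 in every pair of libraries of the same name and highest in gut. Before HCT the ratio was 10.3 in WT, 9.54 in STAT3ko and 4.48 in STAT3koPD-1ko. In liver the 6 pairs lay between 12.2 and 17.5, with a median of 13.7. In gut they lay between 20.5 and 175, with a median of 36.0, and the value of 175, in STAT3ko replicate 2, comes from the lowest CD8 usage. The sets of pairs did not overlap. CD4 and CD8 libraries were normalised separately and the ratio carries the CD4 contrast that chose TRBV23, so no test was made. As a ratio of mean usages, TRBV23 was at 7.45 before HCT, 13.9 in liver and 34.1 in gut, ahead of TRBV22 (6.31) before HCT and of TRBV26 in liver (9.77) and gut (18.2), among segments with a mean CD4 usage of at least 0.5%.

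**Figure D2:**
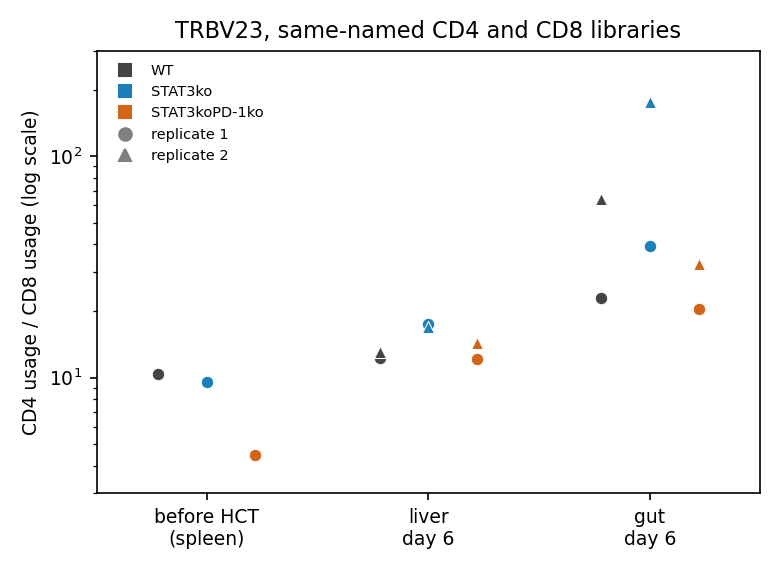
Ratio of CD4 to CD8 usage of TRBV23 (log axis) for each pair of libraries with the same name, before HCT and in liver and gut on day 6, with genotypes by colour and replicates by symbol. Ratios are 4.48 to 10.3 before HCT, 12.2 to 17.5 in liver and 20.5 to 175 in gut.

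Usage is the number of clonotypes times their mean frequency, and these parts differed between tissues. The share of listed CD4 clonotypes that were TRBV23 was 4.06%, 5.17% and 4.50% before HCT and 5.22% to 6.57% in liver. In gut it was 7.51% to 8.14% in replicate 1 and 4.60% to 5.18% in replicate 2, so that the gut mean was 1.01, 1.15 and 1.00 times the liver mean in WT, STAT3ko and STAT3koPD-1ko. The mean frequency of a TRBV23 clonotype relative to that of a clonotype of other V segments differed more. Its log2 ratio was −1.03, −1.37 and −1.60 before HCT, −0.38 to −1.03 in liver and 0.29 to 1.55 in gut. TRBV23 clonotypes were thus smaller than others on average in all 3 libraries before HCT and all 6 liver libraries, and larger in all 6 gut libraries. By tissue this ratio is tied to the usage contrast that chose TRBV23 and is a description. Its mean over all 12 day 6 libraries, 0.03 ± 0.89, averages the 6 negative liver and the 6 positive gut values, so no test of it is given.

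**Figure D3:**
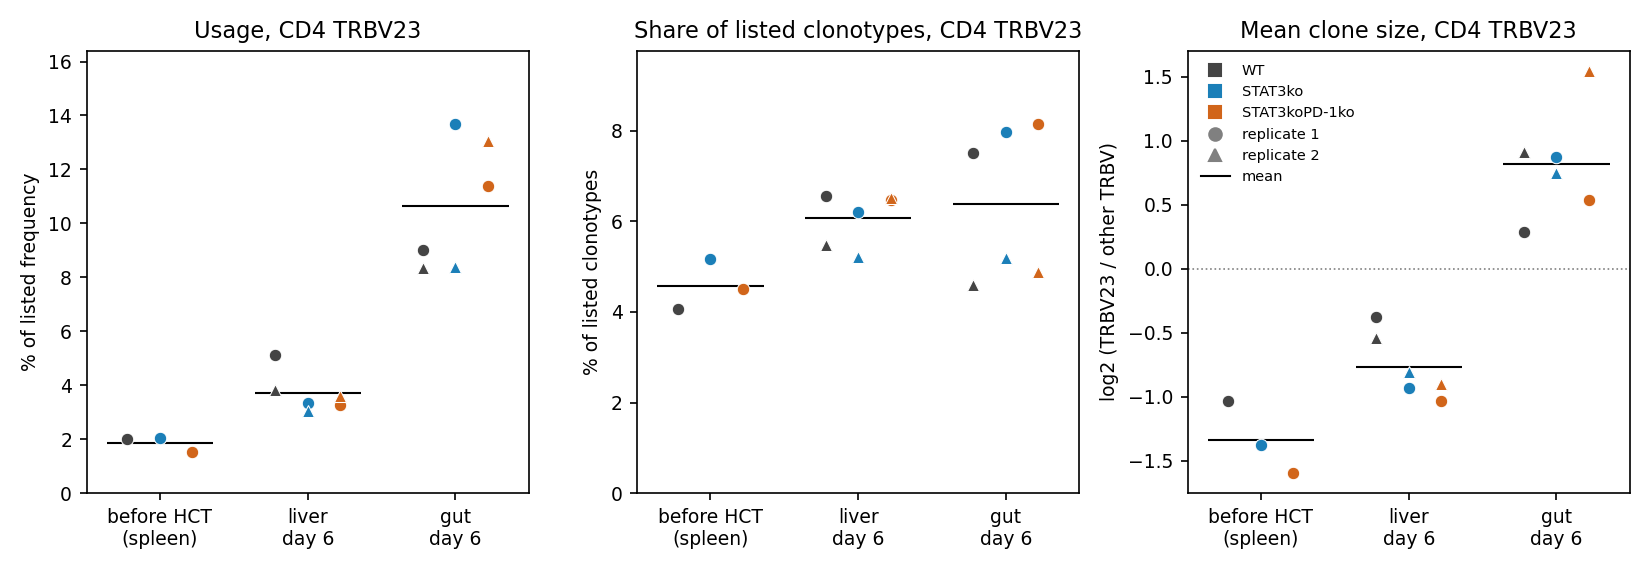
CD4 TRBV23 usage (% of listed frequency, left), share of listed clonotypes (%, middle) and log2 ratio of the mean frequency of a TRBV23 clonotype to that of other clonotypes (right), 1 point per library by tissue, with genotypes by colour, replicates by symbol, lines at means and a dotted line at equal size. Clonotype shares of liver (5.22% to 6.57%) and gut (4.60% to 8.14%) overlap, whereas log2 size ratios are all below 0 in liver and all above 0 in gut.

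A CD4 library listed 167 to 2240 TRBV23 clonotypes, fewest in STAT3ko and STAT3koPD-1ko gut replicate 2. The largest clonotype held 1.87% to 2.47% of the TRBV23 frequency in liver and 0.931% to 6.76% in gut, against 4.38% to 14.4% before HCT. The effective number, the count of equally frequent clonotypes with the same Shannon entropy, was 141 to 341 before HCT, 445 to 706 in liver and 51.6 to 1224 in gut. The gut level was therefore spread over many clonotypes in replicate 1 and over fewer in replicate 2. Gut replicate 2 also listed fewer clonotypes of all V segments together (3418 to 8916, against 21224 to 29839 in replicate 1). Clonotypes above 0.01% of a library carried 22.2% to 38.6% of the TRBV23 frequency in liver, below the 47.7% to 69.8% for other V segments. In gut the ranges were 30.2% to 96.0% and 30.2% to 84.2%, and within each library the TRBV23 share was the higher in all 6 gut libraries, by very little in 1 of them, and the lower in all 6 liver libraries. This is a description, since it follows the contrast that chose TRBV23.

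Of the named CD4 clonotypes, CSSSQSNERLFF, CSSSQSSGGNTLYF and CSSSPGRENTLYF were chosen for their day 6 means. Almost all of these means came from the STAT3koPD-1ko gut replicate 2 library, at 0.436%, 0.433% and 0.410%, and they were found in 4, 2 and 2 libraries. These were 6.49%, 6.44% and 6.10% of the TRBV23 frequency of that library. Those chosen for the number of libraries were the 16-residue one with TRBJ2-3, listed in 13 of 15 libraries, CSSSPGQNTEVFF in 12 and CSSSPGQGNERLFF in 11. The 16-residue clonotype was highest in the 3 gut replicate 2 libraries, at 0.152% in STAT3koPD-1ko, 0.0631% in STAT3ko and 0.0207% in WT. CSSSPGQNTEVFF stayed at or below 0.00801%, and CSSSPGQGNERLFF reached 0.210% in STAT3koPD-1ko gut replicate 2.

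CD4 TRBV23 clonotypes were above 0 in 2.45 of 15 libraries on average, close to the 2.71 for other V segments. Since entry needed 2 or more of the 18 joined libraries, shares in at least 2 of these 15 reflect that rule and libraries not shown. They were 89.5% for TRBV23 against 83.4% for others. Smaller shares of TRBV23 clonotypes than of others were in at least 3 libraries (30.1% against 36.2%) and at least 5 (6.07% against 11%). In CD8 the means were 2.09 and 2.91, with 86.8% against 89.6% in at least 2 libraries, and no TRBV23 clonotype was found in more than 6 libraries, while others reached 15.

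CD8 TRBV23 usage rested on few clonotypes. A library listed 9 to 125, with an effective number of 4.20 to 58.3, and the largest held 9.05% to 67.9% of the TRBV23 frequency on day 6. The log2 size ratio was −0.21 ± 0.65 over the 12 day 6 libraries, above 0 in 4 of 12 (exact sign-flip permutation p = 0.274, adjusted p = 0.366). Leaving out 1 library moved it to between −0.34, without STAT3koPD-1ko gut replicate 2, and −0.13, without STAT3ko gut replicate 2. The 15-residue clonotype with TRBJ2-7 was found in WT libraries alone, at 0.00994% before HCT, 0.171% in liver replicate 1 and 0.0381% in gut replicate 1, where it was 5.17%, 42.7% and 10.4% of the TRBV23 frequency. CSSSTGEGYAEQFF was found in the same 3 libraries, highest in liver replicate 1 at 0.0370%. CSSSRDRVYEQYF was found in 6 libraries and reached 0.145% in STAT3koPD-1ko gut replicate 2. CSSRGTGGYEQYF was found in 5, at most at 0.0149% in STAT3ko liver replicate 2, and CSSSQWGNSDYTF in 4, at most at 0.0211% in STAT3ko T cells before HCT.

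Some TRBV23 clonotypes were in both tables. These 70 were 1.18% of the CD4 and 18.2% of the CD8 TRBV23 clonotypes, against 7.32% and 7.61% for all clonotypes. The same 70 are set against 5913 CD4 and 385 CD8 clonotypes, so the TRBV23 shares must differ. The whole tables were near each other in size (85775 and 82447), and no segment with a like imbalance was compared. In CD8 libraries the 70 clonotypes carried 3.90% to 78.5% of the TRBV23 frequency, against 8.72% to 17.5% for other V segments. The highest values were 78.5% in STAT3koPD-1ko gut replicate 2 and 49.8% in WT gut replicate 2. In CD4 libraries they carried 0.706% to 5.06%, against 10.3% to 21.2% for other V segments. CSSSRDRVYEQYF, 67.9% of the CD8 TRBV23 frequency in STAT3koPD-1ko gut replicate 2, and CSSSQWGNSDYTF were among the clonotypes in both tables. CD4 cells in a CD8 sort and the same rearrangement in both lineages cannot be told apart in these tables.

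The J segment, joined at the other end of the CDR3, was compared within each library between TRBV23 and all other V segments. The J profile in CD4 differed from that of other V segments in 7 of 12 TRBJ segments tested (58.3%), 3 higher and 4 lower in TRBV23. TRBJ2-3 made up 8.44% to 22.1% of TRBV23 frequency over the day 6 libraries (median 12.9%) and 8.56% to 9.78% of that of other V segments. It was higher in TRBV23 in 11 of 12 libraries, by 0.50 on the log2 scale (adjusted p = 0.00227). TRBJ2-4 was at 9.91% to 21.4% (median 12.6%) against 8.52% to 10.6%, higher in 11 of 12 libraries by 0.36 (adjusted p = 0.0155). TRBJ1-4 was at 3.66% to 19.8% (median 10.6%) against 6.38% to 8.15%, higher in 11 of 12 by 0.49 (adjusted p = 0.0267). The exceptions were WT liver replicate 1 for TRBJ2-4, STAT3ko liver replicate 2 for TRBJ2-3 and STAT3ko gut replicate 2 for TRBJ1-4.

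Among the lower segments, TRBJ2-7, the J segment most used with other V segments, was at 11.7% to 15.1% (median 14.1%) in TRBV23 against 15.8% to 19.98%, and lower in all 12 libraries. Its log2 difference was −0.39 (adjusted p = 0.00227), and the 2 ranges did not overlap. TRBJ1-3 was at 1.79% to 5.74% (median 4.15%) against 5.16% to 8.89%, lower in 12 of 12 (−0.78, adjusted p = 0.00227). TRBJ1-6 was at 0.115% to 2.80% (median 1.39%) against 1.97% to 3.34%, lower in 12 of 12 (−1.24, adjusted p = 0.00227). TRBJ1-5 was at 0.00886% to 3.39% (median 0.921%) against 0.957% to 2.58%, lower in 10 of 12 (−1.02, adjusted p = 0.0238), and its 3 lowest values were those of gut replicate 2. Without these 3 libraries TRBJ1-5 was −0.44 and TRBJ1-6 −0.82, and with 1% added before taking logs they were −0.43 and −0.75, still called. Counting each clonotype once, TRBJ1-5 was −0.64 and still called. Without the 3 liver replicate 1 libraries, TRBJ1-4 (0.50, adjusted p = 0.0949) and TRBJ2-4 (0.40, adjusted p = 0.0619) did not pass. TRBJ2-4 also missed with only clonotypes above 0 in at least 3 libraries (0.28, adjusted p = 0.0989), and was 0.13 (adjusted p = 0.0211) when each clonotype was counted once. TRBJ1-4 also missed the threshold without WT liver replicate 2 (adjusted p = 0.0544) or WT gut replicate 2 (0.0538), and TRBJ1-5 without WT gut replicate 2 (0.0538) or STAT3ko gut replicate 2 (0.0602).

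**Figure D4:**
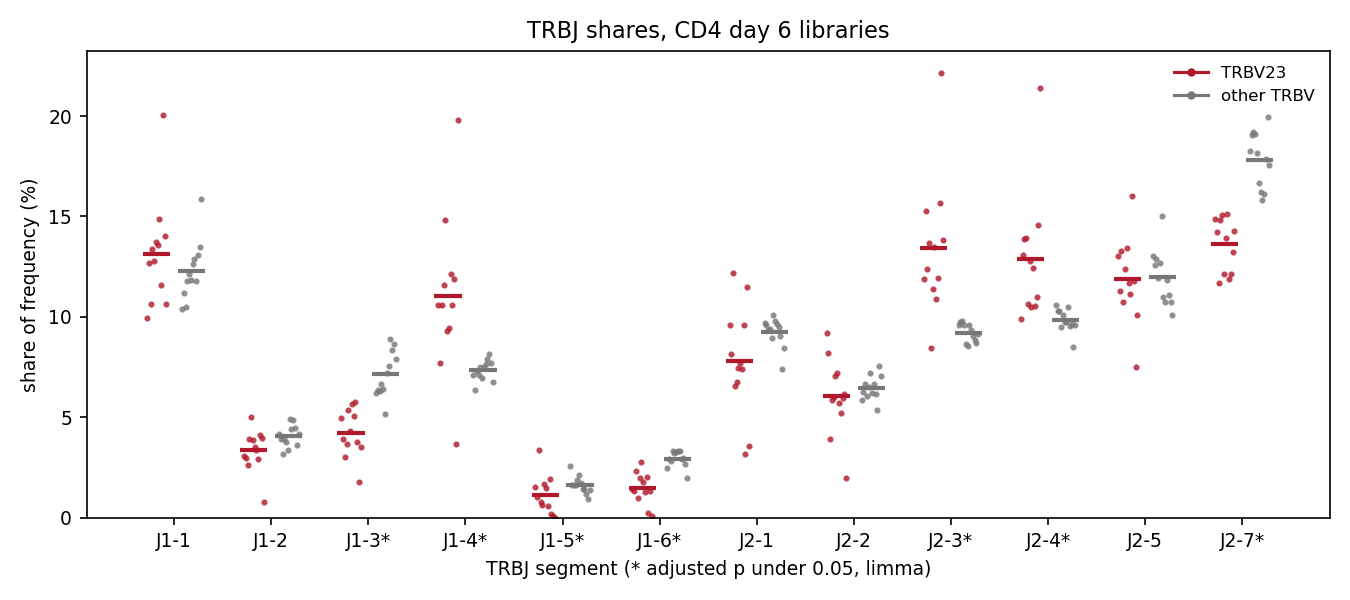
Share of frequency (%) of each TRBJ segment among TRBV23 clonotypes and among clonotypes of all other V segments in the 12 CD4 day 6 libraries, with a point for each library and a short line at each mean. Asterisks mark the 7 segments that passed adjustment: TRBJ1-4, TRBJ2-3 and TRBJ2-4 are higher and TRBJ1-3, TRBJ1-5, TRBJ1-6 and TRBJ2-7 lower in TRBV23.

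The calls above are for day 6. Before HCT, CD4 means differed in the same direction for TRBJ1-3, TRBJ1-4, TRBJ1-6 and TRBJ2-3. They differed in the other direction for TRBJ2-7 (19.8% against 18.4%), TRBJ2-4 (9.02% against 10.2%) and TRBJ1-5 (3.48% against 2.24%). TRBJ2-7 was higher in WT alone (32.4% against 17.9%) and TRBJ1-5 in STAT3koPD-1ko alone (8.60% against 2.11%). On day 6, higher and lower segments lay in both J clusters. The TRBJ1 cluster as a whole then made up 34.4% ± 4.35 of TRBV23 frequency and 35.4% ± 2.47 of that of other V segments (SD, n = 12). The mean distance between the 2 J profiles, the percentage of frequency that would have to change segment, was 14.7%, and 14 of 21 CD4 segments had a larger distance from their own remainder. In CD8 the distance was 35.4%, the largest of 19 segments, ahead of TRBV20 at 21.3%, and it rests on few TRBV23 clonotypes. In CD8, 4 of 12 TRBJ segments (33.3%) passed, all lower in TRBV23, but on few clonotypes. TRBJ1-1 was at 5.94% against 13.2% (−1.86, adjusted p = 0.00644), TRBJ1-3 at 0.633% against 3.59% (−3.70, adjusted p = 0.000392), TRBJ1-5 at 0.708% against 1.55% (−2.44, adjusted p = 0.0016) and TRBJ1-2 at 3.97% against 4.44% (−2.05, adjusted p = 0.0444). TRBV23 with TRBJ1-3 was listed at 0 in 7 of the 12 libraries, with TRBJ1-5 in 7, with TRBJ1-2 in 3 and with TRBJ1-1 in 1. With values at 0 the log2 sizes depend on the 0.1% added before taking logs: adding 1% instead, TRBJ1-3 was −1.71, TRBJ1-5 −0.80 and TRBJ1-2 −0.996, all 3 still called. With clonotypes above 0 in at least 3 libraries, TRBJ1-1 was −4.60 and TRBJ1-2 −4.58. The call for TRBJ1-2 was lost on leaving out any of 7 libraries (adjusted p up to 0.0979), without the 3 gut replicate 2 libraries (−1.27, adjusted p = 0.223), over all 15 libraries (−1.76, adjusted p = 0.0678) and with each clonotype counted once (−1.78, adjusted p = 0.0701). That for TRBJ1-1 was lost when each clonotype was counted once (−0.89, adjusted p = 0.154 in limma). Before HCT, CD8 TRBJ1-2 was higher in TRBV23 on average (17.2% against 4.79%), with 0% in WT and 44.6% in STAT3ko. TRBJ1-1, TRBJ1-3 and TRBJ1-5 were lower on average there too.

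The D segment named in the deposited tables is given as a description. TRBD1 was assigned to 46.4% ± 4.27 of CD4 TRBV23 frequency against 41.6% ± 2.34 for other V segments, higher in 12 of 12 day 6 libraries. TRBD2 was assigned to 23.2% ± 3.12 against 31.0% ± 3.74, higher in 1 of 12. TRBD2 lies between the TRBJ clusters and can join only TRBJ2 segments. For TRBD2, TRBV23 minus other V segments was −15.7 to −6.76 percentage points in gut and −7.45 to 0.94 in liver, while the TRBV23 mean itself was 23.2% in both tissues. In CD8, TRBD1 was assigned to 52.0% ± 15.3 of TRBV23 frequency against 40.9% ± 1.64, higher in 9 of 12 libraries, and TRBD2 to 26.1% ± 13.97 against 27.8% ± 1.05, higher in 5 of 12, so the spread of the CD8 libraries exceeded both differences.

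Among CDR3s with C as the first residue and F, W or L as the last, those of TRBV23 were longer on average than those of other V segments. In CD4 the frequency-weighted mean length was 13.7 to 14.1 residues for TRBV23 and 13.4 to 13.8 for other V segments over the day 6 libraries. The difference was 0.240 ± 0.089 residues (SD, n = 12), above 0 in 12 of 12 libraries (exact sign-flip permutation p = 0.000488, the smallest that 12 libraries can give; adjusted p = 0.00195). It was also above 0 in the 3 libraries before HCT, at 0.084 to 0.328 residues. In CD8 the difference was 0.637 ± 0.396 residues, above 0 in 11 of 12 libraries (exact sign-flip permutation p = 0.00146, adjusted p = 0.00293), and the exception was STAT3koPD-1ko gut replicate 2. The CDR3s with these ends were 5911 of 5913 CD4 TRBV23 clonotypes but 61565 of 79862 of others. TRBV26 made up 17810 of the remaining 18297, so the comparison leaves that segment almost wholly out. With every listed CDR3 the CD4 difference was −3.70 residues, and the CD8 difference was 0.314 residues and did not pass (exact sign-flip permutation, adjusted p = 0.0967).

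**Figure D5:**
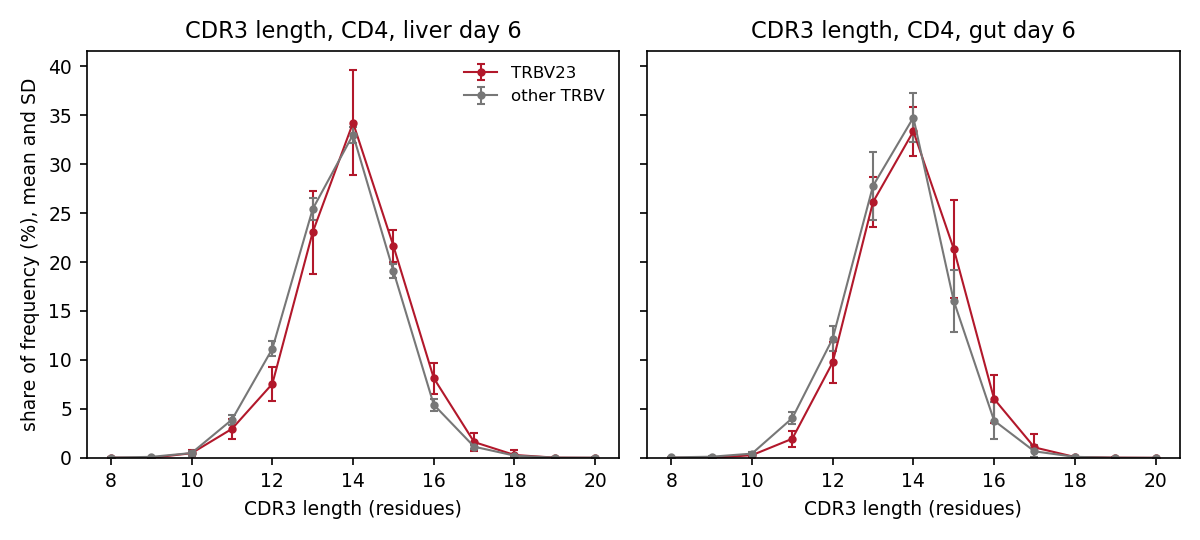
CDR3 length (residues) against share of frequency (%, mean and SD over 6 libraries) for TRBV23 and for other V segments in CD4 T cells of liver and of gut on day 6, for CDR3s with C first and F, W or L last, which leaves TRBV26 almost wholly out. On these CDR3s the TRBV23 profile is shifted to longer CDR3s in both tissues, by a mean of 0.226 residues in liver and 0.253 in gut.

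Most of the variety of a TRBV23 CDR3 lay after the third serine position of the germline V end. Of the CD4 clonotypes, 99.9% began with CSS, 90.8% with CSSS and 55.5% with the full germline CSSSQ. Of the others, 11.3% began with CSSSP, 10.2% with CSSSR and 6.21% with CSSR. CD8 clonotypes were alike in this, with 98.2% CSS, 87.8% CSSS, 50.6% CSSSQ, 14.8% CSSSP, 8.57% CSSSR and 8.31% CSSR. The median clonotype kept 14 of the 17 germline V bases in both tables and had 9 bases in CD4, and 10 in CD8, between the V and J matches. All 17 V bases were kept in 25.1% of CD4 and 21.3% of CD8 clonotypes.

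These features were also weighted by frequency in each CD4 library. V bases kept averaged 14.1 ± 0.29 (SD, n = 3) before HCT, 14.2 ± 0.07 (n = 6) in liver and 14.5 ± 0.33 (n = 6) in gut, and bases between V and J 9.78 ± 0.63, 9.67 ± 0.39 and 8.66 ± 0.83. CDR3s with CSSSQ carried 55.2%, 56.8% and 60.8% of the TRBV23 frequency. The ranges of libraries overlapped between tissues for each of these features, and no test was made. The gut replicate 2 libraries held the highest values for CSSSQ and CSSS. CSSSQ carried 62.8% to 67.4% in them, 54.4% to 58.9% in gut replicate 1, 52.5% to 59.2% in liver and 50.0% to 62.6% before HCT. CSSS carried 97.5% to 98.3% in them against at most 94.2% in any other library. CDR3s with at least 12 V bases carried 79.0% to 82.0% before HCT, 81.6% to 85.9% in liver and 82.5% to 95.9% in gut. This feature comes from a longer list, has no value for other V segments here and was not tested.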

How the data were processed

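TCR alpha and beta transcripts were amplified with Takara's SMARTer mouse TCR kit, called with MiXCR and joined over libraries with VDJtools by the authors, and the processing notes name mm10. The deposited values are a fraction of the reads of each library for each clonotype, formed before the join. The join column that counts libraries was used only to check this, and other deposited columns gave the CDR3 nucleotides and segments. No read count was given, so depth and its precision are unknown. A 0 means only that a clonotype is listed at 0. PCR reads are not cells. The TCR alpha tables were not used here. Which replicate belonged to which of the 2 batches of the study is not given in the sources used here, so within-batch values were not computed.

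Usage was the TRBV23 sum over the sum of a library's listed fractions, in percent. The scale fitted was log2(percent + 0.1), by limma 3.58.1 (R 4.3.3), which understates differences of rare segments, with tissue and genotype as terms over the 12 day 6 libraries (15 for day 6 against before HCT). p-values were two-sided and adjusted by Benjamini-Hochberg over segments of at least 0.5% mean usage. CD8 TRBV23 lies under that minimum, so its values come from all 26 CD8 segments. J shares were compared within a library (limma, 12 segments). CDR3 length and clone size used exact sign-flip permutation tests (Python 3.11.15), adjusted over these 4, and the one for CD4 clone size, tied to the choice of TRBV23, is not reported. Tables were never pooled in a test. Germline ends came from GRCm38 transcripts and were not lifted. Clonotypes were named by a rule on mean, spread over libraries and maximum. TRBV23, the lists and the tests were chosen with earlier results of these data known, and scripts were tested on simulated data. Alternatives varied the pseudocount, minimum usage, denominator, clonotype weighting, libraries left out and a replicate block.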

Additional observations from a re-analysis of the deposited data

Results flagged for a closer look

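With 48 sets of 6 libraries examined, 8 had a library far from the nearest of the others, and chance gives about 1 in 20. In CD4 these were the usage in WT liver replicate 1 (5.13%) and the TRBJ2-4 share in STAT3koPD-1ko gut replicate 2 (21.4%), the library in which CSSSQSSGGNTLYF and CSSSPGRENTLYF, both with TRBJ2-4, were 6.44% and 6.10% of the TRBV23 frequency. In CD8 they were the TRBV23 share of clonotypes in WT liver replicate 2 (0.297%), the TRBJ1-2 shares in STAT3ko liver replicate 1 (22.8%) and WT gut replicate 1 (11.97%), the TRBJ1-3 share in STAT3koPD-1ko liver replicate 2 (4.49%) and the TRBJ1-5 share in STAT3koPD-1ko gut replicate 1 (2.04%). The ratio of CD4 to CD8 usage in STAT3ko gut replicate 2 (175) was also far from the other gut pairs, and that CD8 library listed few TRBV23 clonotypes.

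Effects of STAT3koPD-1ko against WT ran in opposite directions in liver and gut. The term for gut minus liver was 0.85 on the log2 scale in CD4 (adjusted p = 0.723 in limma) and 1.09 in CD8 (adjusted p = 0.945), and neither passed. The log2 clone size ratio of CD4 TRBV23 was above 0 in all 6 gut libraries (mean 0.82) and below 0 in all 6 liver libraries (mean −0.77). This difference was not tested, as it is tied to the contrast that chose TRBV23.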

How the results depend on the processing

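Of 601 values recomputed for 31 results under alternatives, 536 kept their direction and side of the threshold. Counting each listed clonotype once gave 0.027 for CD4 STAT3ko minus WT and 0.066 in CD8, −0.36 for CD8 gut minus liver, −0.025 for CD8 day 6 minus before HCT, and for gut minus liver effects −0.21 (CD4 STAT3koPD-1ko minus STAT3ko), −0.014 (CD4 STAT3koPD-1ko minus WT) and −0.078 (CD8 STAT3ko minus WT). Clonotypes above 0 in at least 3 libraries gave −0.067 for CD4 STAT3koPD-1ko minus WT, −0.21 for CD8 day 6 minus before HCT, log2 clone size ratios of −0.063 in CD4 and 0.050 in CD8, and 9 CD8 TRBJ calls in place of 4. Without liver replicate 1, CD4 STAT3ko minus WT was 0.10. Without gut replicate 2, CD4 STAT3koPD-1ko minus STAT3ko was −0.022 and STAT3koPD-1ko minus WT −0.13, CD8 STAT3koPD-1ko minus WT −0.078, CD8 gut minus liver 0.55 (adjusted p = 0.0486, past the threshold) and the CD4 clone size ratio −0.32. That ratio was −0.25 over all 15 libraries and −0.094 without TRBV26 among the others. CD8 gut minus liver was −0.070 with a pseudocount of 0.01% and −0.20 per all reads, where CD8 day 6 minus before HCT was −0.076. With every listed CDR3, the length difference was −3.70 residues in CD4, where most clonotypes that enter are TRBV26. In CD8 it was 0.314 (exact sign-flip permutation, adjusted p = 0.0967). Of values that kept their sign, counting each clonotype once moved CD4 STAT3koPD-1ko minus STAT3ko to 0.081 and minus WT to 0.11, CD8 STAT3koPD-1ko minus STAT3ko to 0.13, and the gut minus liver effects of CD4 STAT3ko minus WT to 0.20, CD8 STAT3koPD-1ko minus STAT3ko to 0.27 and CD8 STAT3koPD-1ko minus WT to 0.20. A pseudocount of 1%, which shrinks rare segments, gave −0.13, 0.20 and 0.066 for the CD8 genotype contrasts and 0.11, 0.23 and 0.34 for their gut minus liver effects, and one of 0.01% gave −0.80 for CD8 STAT3ko minus WT. Without liver replicate 1, STAT3koPD-1ko minus WT was 0.30 in CD4 and 0.46 in CD8. Without gut replicate 2, CD8 STAT3koPD-1ko minus STAT3ko was 0.41 and CD8 day 6 minus before HCT 0.33. The effect of CD8 STAT3koPD-1ko minus STAT3ko per all reads was 0.55, and the CD8 clone size ratio of medians was −0.044. None of these passed the threshold. The causes of these shifts were not tested.

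With single libraries left out, the ranges were −0.25 to 0.10 for CD4 STAT3ko minus WT, −0.057 to 0.24 for CD4 and −0.069 to 0.38 for CD8 STAT3koPD-1ko minus WT, −0.14 to 0.25 for CD8 gut minus liver and −0.092 to 0.22 for CD8 day 6 minus before HCT. They were −0.26 to 0.43 for the gut minus liver effect of CD4 STAT3koPD-1ko minus STAT3ko, −0.53 to 1.07 for that of CD8 STAT3ko minus WT and −0.11 to 0.12 for the CD4 clone size ratio. Without 1 library, values of the same sign also moved by over 1.5 times: CD8 STAT3ko minus WT to −0.19 without STAT3ko gut replicate 2, −0.79 without STAT3ko gut replicate 1 and −0.81 without WT gut replicate 2, and CD8 STAT3koPD-1ko minus STAT3ko to 0.41 without STAT3ko gut replicate 2. CD4 STAT3koPD-1ko minus STAT3ko (0.14) ranged from 0.046 without STAT3koPD-1ko gut replicate 2 to 0.31 without STAT3ko gut replicate 1. For gut minus liver effects, CD8 STAT3koPD-1ko minus STAT3ko moved to 0.027 and 1.62 without STAT3ko gut replicates 2 and 1, CD8 STAT3koPD-1ko minus WT to 0.54 and 1.64 without WT gut replicates 2 and 1, and CD4 STAT3ko minus WT to 0.41 without STAT3ko gut replicate 1. The CD8 clone size ratio (−0.21) ranged from −0.34 without STAT3koPD-1ko gut replicate 2 to −0.13 without STAT3ko gut replicate 2, and was −0.15 and −0.14 without STAT3ko liver replicates 1 and 2. In these fits no usage contrast passed, CDR3 length kept its calls, and J calls numbered 5 to 7 in CD4 and 3 to 6 in CD8.

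Same-numbered libraries deviated together in 6 of 15 CD4 and 9 of 15 CD8 pairs (correlation over segments above 0.1, range −0.446 to 0.502 and −0.167 to 0.866). Same-numbered liver and gut libraries of a genotype correlated at 0.126 to 0.303 in CD8 and 0.011 to 0.176 in CD4. With the replicate block, CD4 STAT3koPD-1ko minus WT was 0.064 and CD8 gut minus liver 0.032 (adjusted p = 0.837 and 0.975). CD8 day 6 minus before HCT was 0.37 (adjusted p = 0.398, against 0.07 without it). All libraries before HCT are replicate 1, so the block confounds that contrast. It changed no usage call and was not run for J or CDR3 length.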
